A study of Mus musculus with 20 samples.

Results

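Serum amyloid A, orosomucoid and haem-scavenger genes were described in liver of mice given cadmium chloride (CdCl2). The 10 genes are Saa1, Saa2, Saa3, Saa4, Orm1, Orm2, Hp, Hpx, Apcs and Lcn2, taken by symbol from the 21768 genes of the deposited count table, with 1 transcript per gene, the one with the highest count summed over the libraries used. The 10 libraries used are the input libraries of an m6A sequencing experiment, that is, fragmented liver RNA sequenced without the antibody that pulls down methylated adenosine, so their counts measure RNA abundance. All mice are labelled wild type. The 4 groups are 3 livers after 9 months of 100 mg/L CdCl2 in drinking water, 2 control livers of the 9-month arm, 3 livers after 3 months of the same exposure and 2 control livers of the 3-month arm. The labels name no strain, sex or starting age, and they do not say whether libraries of a group come from separate animals, so p-values measure only the spread between these libraries.

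Serum amyloid A proteins, orosomucoids (alpha-1-acid glycoproteins), haptoglobin and hemopexin are plasma proteins made mainly by hepatocytes. In the acute phase response, interleukin-6 and interleukin-1 from activated macrophages act on hepatocytes through STAT3, NF-kB and C/EBP factors and raise the transcription of these genes, most of all of the inducible serum amyloid genes. Saa1 and Saa2 encode the inducible forms carried on high-density lipoprotein, Saa4 encodes a constitutive form, Hp binds free haemoglobin, Hpx binds free haem, Apcs (serum amyloid P, a pentraxin and an acute phase protein in mice) binds amyloid and microbial surfaces, and Lcn2 binds bacterial siderophores.

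The 4 serum amyloid genes lie in 1 cluster of 42317 bases on mouse chromosome 7 (GRCm38.p6, chr7:46711998-46754314), in the order Saa3, Saa4, Saa1 and Saa2, with the pseudogene Saa-ps between Saa4 and Saa1. Orm1 and Orm2 span 21322 bases on chromosome 4 (chr4:63344556-63365877) with 14285 bases between them, which hold Orm3 and the pseudogene Gm11212. Hp is at chr8:109575128-109579172, Hpx at chr7:105591611-105600116, Apcs at chr1:172893961-172895054 and Lcn2 at chr2:32384637-32387739. Saa1 and Saa2, and Orm1 and Orm2, are near-identical copies, so reads could be split between them and the counts of the rarer copy are uncertain. The annotated Saa3 gene overlaps the lncRNA Gm31882, which starts at chr7:46718894. The Saa3 transcript used here, chr7:46711998-46715676, does not reach it. Orm1 overlaps Gm52743, and the strand setting of the counting is not given in the sources used here.

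Promoters from 250 bases before to 50 bases after a transcript start were taken from RefSeq (GRCm38.p6), whose table held 8 of the 10 genes; Hp and Orm1 were the other two. For 6 of the 8 that start is the outer end of the annotated gene, while for Saa1 it lies 201 bases and for Saa3 3939 bases inside the gene. They are printed for Saa1 and Saa2, the inducible pair, and for Saa3, Orm2 and Lcn2, which had low counts in most libraries, a choice made with these values known. Each is given 5′ to 3′ on the strand of its gene, with matches to the motifs searched in capitals: Saa1 at chr7:46742931-46743230 (minus strand), Saa2 at chr7:46751583-46751882 (plus strand), Saa3 at chr7:46715627-46715926 (minus strand), Orm2 at chr4:63362199-63362498 (plus strand) and Lcn2 at chr2:32387690-32387989 (minus strand).
Saa1: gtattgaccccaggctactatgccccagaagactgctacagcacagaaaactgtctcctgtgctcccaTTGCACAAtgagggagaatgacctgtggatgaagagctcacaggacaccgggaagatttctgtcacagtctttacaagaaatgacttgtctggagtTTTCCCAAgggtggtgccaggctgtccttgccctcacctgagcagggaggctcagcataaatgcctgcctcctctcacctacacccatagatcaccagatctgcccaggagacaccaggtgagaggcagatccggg
Saa2: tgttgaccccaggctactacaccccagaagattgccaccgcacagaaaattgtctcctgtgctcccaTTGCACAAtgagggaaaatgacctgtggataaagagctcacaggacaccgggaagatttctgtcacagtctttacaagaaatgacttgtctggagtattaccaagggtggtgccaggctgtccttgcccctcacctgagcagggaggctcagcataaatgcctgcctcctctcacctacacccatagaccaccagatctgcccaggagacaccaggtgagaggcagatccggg
Saa3: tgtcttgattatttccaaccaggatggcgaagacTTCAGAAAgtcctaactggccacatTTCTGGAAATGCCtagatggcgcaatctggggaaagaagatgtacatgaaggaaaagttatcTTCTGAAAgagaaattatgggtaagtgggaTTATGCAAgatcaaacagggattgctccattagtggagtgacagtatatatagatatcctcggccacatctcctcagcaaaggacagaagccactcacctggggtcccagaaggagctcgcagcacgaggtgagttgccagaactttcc
Orm2: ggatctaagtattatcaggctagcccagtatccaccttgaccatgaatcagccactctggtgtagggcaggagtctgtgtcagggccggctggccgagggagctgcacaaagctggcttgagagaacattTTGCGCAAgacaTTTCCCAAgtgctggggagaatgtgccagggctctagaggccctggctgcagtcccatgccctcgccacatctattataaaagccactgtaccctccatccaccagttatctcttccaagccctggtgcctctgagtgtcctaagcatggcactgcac
Lcn2: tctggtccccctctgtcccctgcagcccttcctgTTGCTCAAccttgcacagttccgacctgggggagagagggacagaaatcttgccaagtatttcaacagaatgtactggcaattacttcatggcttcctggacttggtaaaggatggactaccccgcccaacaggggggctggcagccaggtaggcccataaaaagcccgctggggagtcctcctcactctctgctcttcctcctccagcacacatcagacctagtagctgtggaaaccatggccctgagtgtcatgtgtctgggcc
The Saa1 and Saa2 promoters were identical in 287 of 301 alignment columns (95.3%), and no other pair of the 8 promoters passed 51.3%. The motifs searched on both strands were C/EBP (TTNNGNAA), STAT3 (TTCNNNGAA) and NF-kB (GGNNTTTCC), which 40.7%, 8.30% and 5.82% of 32851 RefSeq promoters of this length hold, in that order. Saa1 had 2 C/EBP matches, whose first bases lie at -182 and -86 from the transcript start of the window, and Saa2 had 1, at -183. Saa3 had 4 C/EBP matches and 1 NF-kB match that overlaps a C/EBP match. Orm2 had C/EBP matches at -120 and -108, the first of which reads the same on both strands and was counted on each. Saa4 and Hpx had 2 C/EBP matches each, Lcn2 had 1, at -216, and Apcs had 1 STAT3 match. These matches describe letters in the window, and 7 of the 8 promoters held the C/EBP letters that 40.7% of all promoters hold.

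Gene totals ran from 3958164 to 8912898 counts per library, so 3 counts of a gene are worth 0.352 to 0.663 CPM (counts scaled to a common library total, here after TMM scaling). The 3-month controls stood apart: their median correlations with the other libraries over 9423 genes were 0.828 and 0.827, against 0.895 to 0.931 for the other 8. The 13 pancreas markers summed to 1928 CPM in 9-month exposed liver 1, to 9941 CPM in control 2 of that time and to 261 CPM in 3-month control 3, while the remaining 7 libraries held 8.55 to 33.7 CPM of them. Hepatocyte markers (6 genes) summed to 64230 to 68050 CPM in 3-month exposed livers and 55770 to 57260 CPM in 3-month controls, without overlap. At 9 months they summed to 57090 to 70460 CPM in exposed livers and 49130 to 81840 CPM in controls. In bulk liver, fewer cells of a type and less RNA per cell cannot be told apart.

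The genes span a wide range of abundance. Per length, in TPM (the deposited transcript abundance, scaled to the same sum in each library) averaged over the 10 libraries, Hpx stood at 2372, Hp at 840, Apcs at 70.4, Orm1 at 68.5, Saa4 at 63.3, Saa1 at 24.9, Lcn2 at 3.92, Saa3 at 2.00, Orm2 at 1.30 and Saa2 at 0.409 TPM. Hpx was above Hp, and Hp above Apcs, in 10 of 10 libraries. Apcs, Orm1 and Saa4 did not separate, since Apcs was above Orm1 in 6 of 10 libraries and Orm1 above Saa4 in 3 of 10. Saa4 was above Saa1 in 9 of 10 libraries, the exception being 9-month exposed liver 2. Together the 10 genes held 0.381% to 1.03% of the gene counts of a library, and Hp and Hpx made up 92.5% to 96.1% of that.

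**Figure D1:**
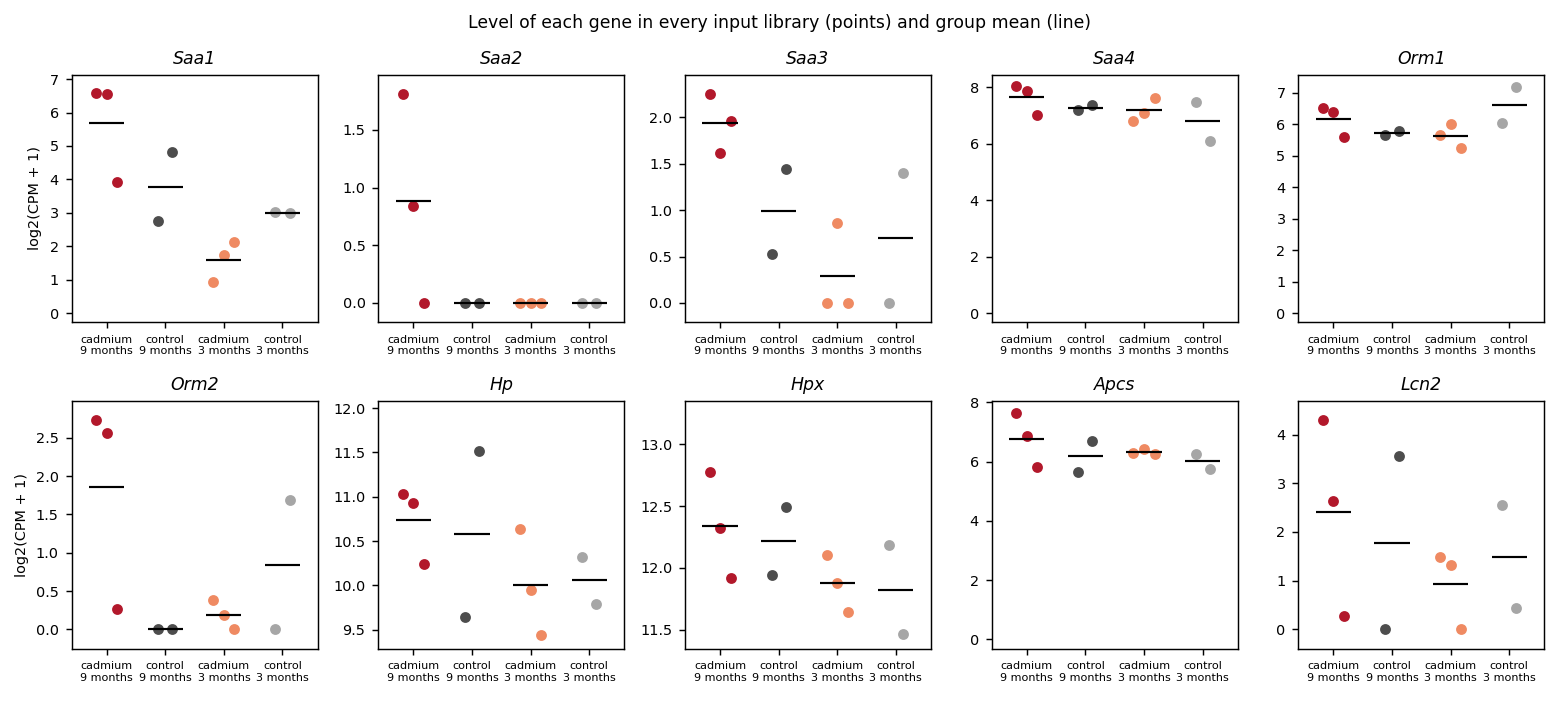
Level of each of the 10 genes as log2(CPM + 1) in every input library (points), with the group mean of these log values (line); columns are cadmium and control at 9 months, then cadmium and control at 3 months, and the Hp and Hpx axes do not start at 0. Saa1 is highest in 9-month exposed livers 1 and 2 (94.6 and 92.7 CPM) and lowest in the 3-month exposed livers (0.90 to 3.40 CPM), while Hp and Hpx overlap across all 4 groups.

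Saa1, the major inducible serum amyloid, separated the exposure times without overlap. It had 94.6, 92.7 and 14.1 CPM in livers exposed for 9 months and 5.75 and 27.1 CPM in 9-month controls. It had 0.90, 2.32 and 3.40 CPM in livers exposed for 3 months and 7.17 and 6.92 CPM in 3-month controls. All 3 exposed livers at 9 months were above all 3 at 3 months, exposed liver 3 at 9 months overlapped its controls, and at 3 months both controls were above every exposed liver. The raw counts behind these values were 603, 587 and 68 at 9 months of exposure and 6, 17 and 26 at 3 months.

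Between exposure times, Saa1 averaged 67.1 ± 46.0 CPM after 9 months and 2.21 ± 1.25 CPM after 3 months (SD, n = 3 each), a log2 fold change of 4.90 ± 0.87 (SE), or 30.0-fold. By edgeR's quasi-likelihood test with Benjamini-Hochberg adjustment over 14067 genes this did not pass 0.05 (unadjusted p = 0.000236, adjusted p = 0.415), and 0 genes of the table did (0%, with 680 at an unadjusted p under 0.05, or 4.83%). DESeq2 gave Saa1 an adjusted p of 1.26e-08 for the same contrast, with 17 genes past 0.05, edgeR without a filter on low counts gave 5.81e-23, and edgeR without 9-month exposed liver 3 gave 0.0103. The other 17 of 20 alternatives did not pass, and the log2 fold change lay between 4.42 and 5.38 in all 20. An exact permutation test over the 6 exposed livers gave p = 0.1, two-sided, the smallest that 3 against 3 allows. This p follows from the lack of overlap given above and adds no evidence to it. Between control times, the Saa1 log2 fold change was 1.24 ± 0.93 (adjusted p = 0.511 by edgeR), and it was -0.25 without 9-month control 2. Length of exposure cannot be told apart from age or sampling occasion in the contrast between exposure times.

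Against controls of the same time, Saa1 averaged 67.1 ± 46.0 CPM in exposed livers and 16.4 ± 15.1 CPM in controls at 9 months (n = 3 and 2), a log2 fold change of 2.02 ± 0.87 with adjusted p = 1 by edgeR. At 3 months it averaged 2.21 ± 1.25 CPM in exposed livers and 7.04 ± 0.18 CPM in controls, a log2 fold change of -1.65 ± 0.88 with adjusted p = 0.429. The cadmium effect at 9 months minus that at 3 months was 3.67 ± 1.24 on the log2 scale (unadjusted p = 0.0143, adjusted p = 0.473 by edgeR). The 9-month value was 3.53 without control 2, which holds the most pancreas RNA, and 3.20 without both pancreas-rich libraries. It was 1.32 without control 1. Only the fit without a filter on low counts passed the threshold for these 3 contrasts, with adjusted p of 0.00560, 0.0273 and 1.26e-05 for 9 months, 3 months and their difference.

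Saa2, the near copy of Saa1, was found in 2 libraries only, with 16 and 5 counts (2.51 and 0.790 CPM) in 9-month exposed livers 1 and 2. It was at 0 in exposed liver 3, in both 9-month controls and in all 5 libraries of 3 months. These are 2 of the libraries with the most Saa1, and the low count kept Saa2 out of the tests. Against a floor of 3 counts per library, Saa2 in the 9-month exposed livers was at least 2.07-fold higher than in 9-month controls and at least 2.64-fold higher than in livers exposed for 3 months, a bound on counting error alone.

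Saa3, an inducible form that macrophages and adipocytes also make in mice, had 3.77, 2.05 and 2.89 CPM in 9-month exposed livers and 0.442 and 1.72 CPM in 9-month controls. It had 0, 0.819 and 0 CPM in 3-month exposed livers and 0 and 1.64 CPM in 3-month controls. At 9 months the 3 exposed livers were above both controls, by a narrow margin over control 2. The log2 fold changes were 1.39 ± 1.93 for cadmium at 9 months, -1.57 ± 1.88 at 3 months and 3.32 ± 1.82 between exposure times (adjusted p = 1, 0.753 and 1 by edgeR). Between 0 and 24 counts per library lie behind them, and the fitted biological coefficient of variation was 121%. The 3-month value was 3.87 without 3-month control 3, and the value between exposure times was 7.22 without 3-month exposed liver 2.

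Saa4, the constitutive form, had 262, 234 and 130 CPM in 9-month exposed livers and 145 and 164 CPM in 9-month controls. It had 111, 137 and 198 CPM in 3-month exposed livers and 180 and 67.5 CPM in 3-month controls. The groups overlapped at both times. Its log2 fold changes were 0.44 ± 0.40 for cadmium at 9 months (95% interval -0.42 to 1.29) and 0.27 ± 0.40 at 3 months (95% interval -0.58 to 1.12), with adjusted p of 1 and 0.811 by edgeR. The 3-month value was -0.27 without control 3 of that time and 1.14 without control 2.

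Orm1, the more abundant of the orosomucoid pair per length, was lower in every exposed liver than in every control at 3 months. It had 49.5, 63.6 and 36.8 CPM in 3-month exposed livers and 64.5 and 145 CPM in 3-month controls, with the highest exposed and the lowest control value close together. At 9 months it had 90.9, 82.6 and 47.8 CPM in exposed livers and 49.98 and 53.8 CPM in controls, and the groups overlapped. The log2 fold change was -1.07 ± 0.37 at 3 months (unadjusted p = 0.00969, adjusted p = 0.209 by edgeR) and 0.51 ± 0.38 at 9 months (adjusted p = 1). The 9-month minus the 3-month effect was 1.58 ± 0.53 (adjusted p = 0.434 by edgeR), and 2.04 without 3-month control 2. A single control decided the 3-month size: without 3-month control 3 the log2 fold change was -0.37, and without control 2 it was -1.53. Each of these fits leaves a single control at that time, so only the effect sizes are given. Between control times Orm1 averaged 51.9 ± 2.73 CPM at 9 months and 105 ± 57.0 CPM at 3 months (n = 2 each). The log2 fold change was -1.02 ± 0.41 (adjusted p = 0.177 by edgeR), and it was -0.31 without 3-month control 3 and -1.48 without control 2.

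Orm2, the second orosomucoid, followed the libraries with the most Saa1 among exposed livers. It had 36, 31 and 1 counts (5.65, 4.90 and 0.207 CPM) in 9-month exposed livers and 0 in both 9-month controls. It had 2, 1 and 0 counts in 3-month exposed livers, against 0 and 19 counts in 3-month controls. Thus the 9-month exposed group was above its controls only by 1 count in exposed liver 3, and at 3 months a single control held nearly all of the RNA. Against the floor of 3 counts per library, the 9-month exposed livers were at least 6.76-fold higher than 9-month controls (adjusted p = 1 and unadjusted p = 0.0221 by edgeR). The ratio of exposed livers at 9 over 3 months was 28.0 (68 against 3 counts, 95% counting interval 9.17 to 139), and that of exposed over control livers at 3 months was 0.0968 (3 against 19 counts, 0.0184 to 0.329). These intervals cover counting error only and leave out the spread between livers.

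**Figure D2:**
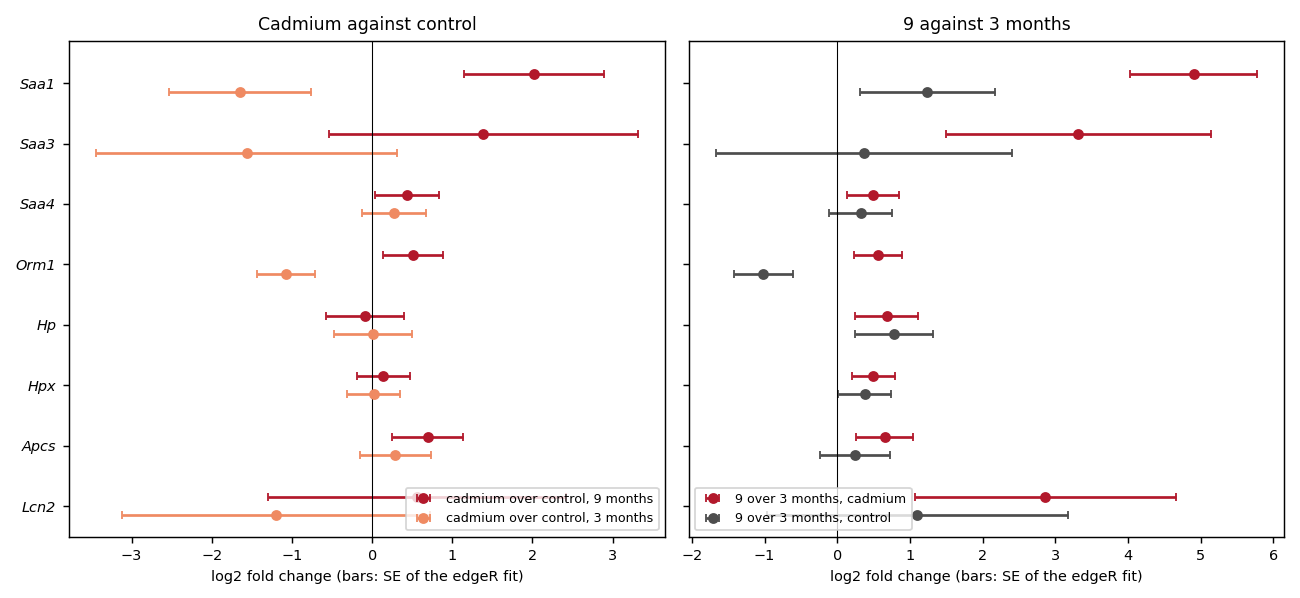
Log2 fold changes of the 8 genes with counts in every group that entered the test, with the SE of the edgeR fit (bars); the left panel sets cadmium against control at 9 and 3 months and the right panel 9 against 3 months in exposed and control livers. Saa1 between exposure times (4.90 ± 0.87) lies farthest from 0 of the plotted values, Saa4, Hp, Hpx and Apcs lie within 1 unit of 0 in all 4 contrasts, and no value passed an adjusted p of 0.05.

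Hp, which encodes haptoglobin, had 2085, 1946 and 1214 CPM in 9-month exposed livers and 801 and 2924 CPM in 9-month controls. It had 1595, 987 and 695 CPM in 3-month exposed livers and 1280 and 885 CPM in 3-month controls. The 9-month controls held both the lowest and the highest value of that time. The log2 fold change was -0.09 ± 0.48 at 9 months (95% interval -1.14 to 0.96) and 0.01 ± 0.49 at 3 months (-1.04 to 1.06), with adjusted p of 1 and 0.998 by edgeR. The 9-month value was 1.11 without control 2 and -0.73 without control 1, so its direction rests on a single control. Control 2 is also the library with the most pancreas RNA, and the part of that RNA in the value was not tested.

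Hpx, which encodes hemopexin, had 7005, 5117 and 3878 CPM in 9-month exposed livers and 3926 and 5756 CPM in 9-month controls. It had 4403, 3763 and 3190 CPM in 3-month exposed livers and 4644 and 2819 CPM in 3-month controls. The groups overlapped at both times. The log2 fold change was 0.14 ± 0.33 at 9 months (95% interval -0.56 to 0.84) and 0.02 ± 0.33 at 3 months (-0.68 to 0.72), so changes beyond 0.84 in either direction lay outside both intervals. Its fitted biological coefficient of variation of 30.5% was the lowest of the 9 tested genes, against 46.4% for the median of all tested genes.

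Between exposure times, Hp and Hpx averaged 1749 ± 468 and 5333 ± 1575 CPM after 9 months and 1092 ± 459 and 3786 ± 607 CPM after 3 months (SD, n = 3). On the log2 scale Hp differed by 0.68 ± 0.44 and Hpx by 0.49 ± 0.30, each with an adjusted p of 1 by edgeR. Between control times the same genes gave 0.78 ± 0.54 and 0.38 ± 0.36 (adjusted p = 0.455 and 0.613).

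Apcs, which encodes the pentraxin serum amyloid P, had 199, 116 and 55.8 CPM in 9-month exposed livers and 48.9 and 104 CPM in 9-month controls. It had 76.6, 84.4 and 75.1 CPM in 3-month exposed livers and 76.1 and 52.9 CPM in 3-month controls. The 3-month exposed livers lay close together, with an SD of 6.36% of the mean, while the 9-month exposed livers spanned 3.57-fold. The log2 fold changes were 0.69 ± 0.45 at 9 months and 0.29 ± 0.44 at 3 months (adjusted p = 1 and 0.816 by edgeR). The 9-month value ran between 0.15 without exposed liver 1 and 1.33 without control 2, and the 3-month value between 0.05 without control 3 and 0.58 without control 2.

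Lcn2, which encodes lipocalin-2, had 119, 33 and 1 counts (18.7, 5.21 and 0.207 CPM) in 9-month exposed livers and 0 and 81 counts (0 and 10.7 CPM) in 9-month controls. It had 12, 11 and 0 counts in 3-month exposed livers, against 23 and 3 counts in 3-month controls. Each group held at least 1 library with 3 or fewer counts. The log2 fold changes were 0.56 ± 1.86 at 9 months and -1.20 ± 1.92 at 3 months (adjusted p = 1 and 0.828 by edgeR), and the fitted biological coefficient of variation was 124%. Both directions rest on single libraries, since the 9-month value was -0.99 without exposed liver 1 and -0.41 without control 1, and the 3-month value 1.59 without control 2. The 2 highest values were in the 2 libraries with the most pancreas RNA, whose part in the Lcn2 level was not tested.

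Counted together, 0 of the 9 tested genes passed an adjusted p of 0.05 in edgeR in any of 6 contrasts. The share of all tested genes past it was 0.107% for cadmium at 3 months (15 genes), 0% at 9 months, 0.0995% for the mean of both times, 0% for the difference of the times, 0% between exposure times and 3.55% between control times. At an unadjusted p under 0.05 there were 2 of 9 for cadmium at 9 months (Saa1 and Orm2, against 2.21% of all genes), 1 of 9 at 3 months (Orm1, against 14.4%), 3 of 9 for the difference of the times (Saa1, Orm1 and Orm2, against 9.32%) and 0 of 9 for their mean (against 8.15%). Between exposure times there were 2 of 9 (Saa1 and Orm2, against 4.83%), and between control times 1 of 9 (Orm1, against 19.9%). Orm2 had more than 3 counts only in 9-month exposed livers 1 and 2 (36 and 31) and 3-month control 3 (19). It thus passed the filter on low counts mainly through exposed livers in which it was high, and its place in these counts is no separate support. DESeq2 called 1 of the 9, Saa1 between exposure times, and limma voom called none. For Saa3 and Orm2, DESeq2 gave no adjusted p between exposure times and for the mean of both times. Groups that did not overlap were found for Saa3 and Orm2 at 9 months, with exposed livers higher (10.3% of all genes), and for Saa1 and Orm1 at 3 months, with exposed livers lower (11.9% of all genes). The 9-month margins lay near the depth limit, at 1 count against 0 for Orm2 and 2.05 against 1.72 CPM (13 counts in each library) for Saa3. Between exposure times Saa1 and Saa3 were higher at 9 months without overlap (7.23% of all genes), and between control times Orm1 was lower at 9 months (20% of all genes).

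The median log2 fold change over the 9 genes was 0.56 for cadmium at 9 months and -1.07 at 3 months, beside 0.01 over all genes at each time. At 9 months 8 of 9 genes lay above 0 (50.7% of all genes), and at 3 months 4 of 9 (50.6%). The 3-month median is the value of Orm1, and the next higher value is 0.01 for Hp, with none between. Of the genes below 0 at 3 months, Saa3, Orm2 and Lcn2 had libraries at 0 counts. The 9-month median was the same with Orm2 set at its bound. Single libraries decided both medians: at 9 months the median was 0.22 with 6 of 9 above 0 without exposed liver 1 and 1.33 with 9 of 9 without control 2, and at 3 months it was 0.31 with 5 of 9 above 0 without control 2 and -0.27 with 3 of 9 without control 3. Between exposure times the median was 0.68 with 9 of 9 above 0 (50.3% of all genes), and between control times 0.37 with 7 of 9 above 0 (52.1%), beside 0.00 and 0.06 over all genes. Without 1 library each, the exposure-time median lay between 0.52 and 1.06 with 9 of 9 above 0, and the control-time median was -0.39 with 2 of 9 above 0 without 9-month control 2. The exposure-time contrast shares its exposed livers, and the control-time contrast its controls, with the contrasts at one time, so these medians are not independent.

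**Figure D3:**
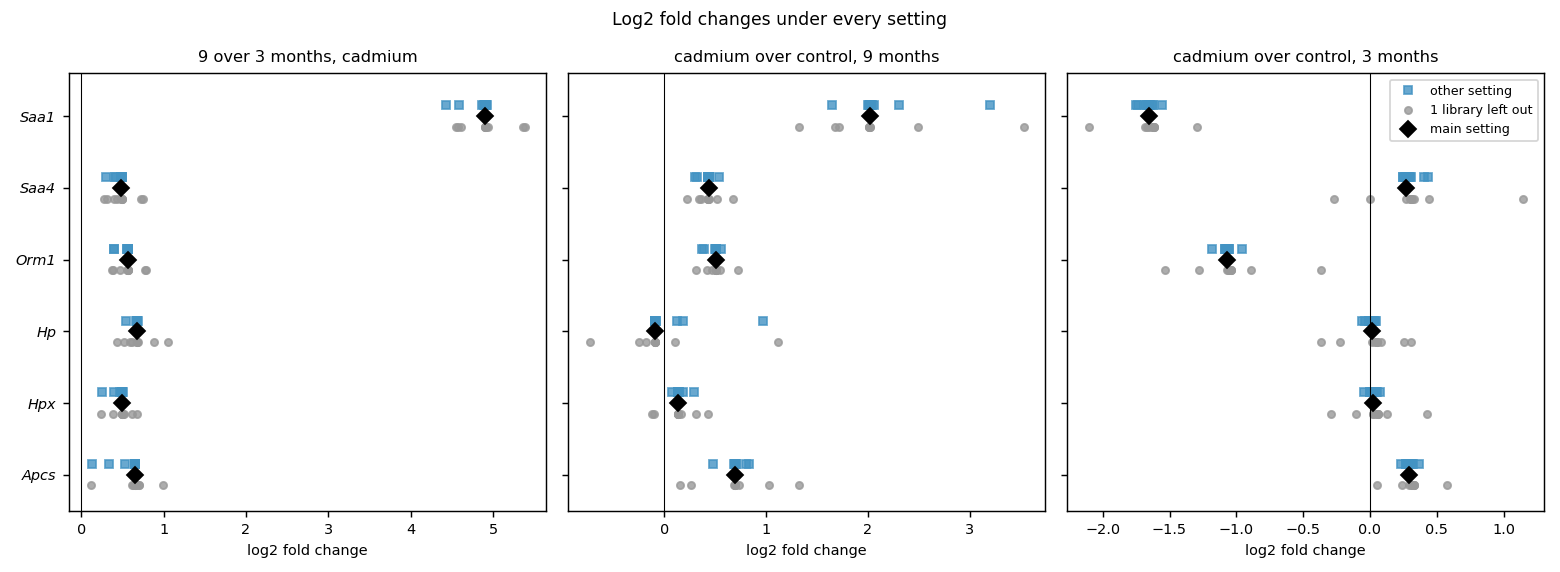
Log2 fold changes of 6 genes with at least 6 counts in every library under the main setting (diamonds), 10 fits that each leave out 1 library (circles) and the other settings (squares), for 9 over 3 months in exposed livers and for cadmium over control at 9 and at 3 months. Saa1 keeps its sign in all 3 contrasts (4.42 to 5.38, 1.32 to 3.53 and -2.10 to -1.29), while Hp and Hpx cross 0 in both cadmium contrasts.

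Genes that act beside these were taken from 6 lists. Of 22 tested other positive acute phase proteins, 0 passed the threshold at either time. Their median log2 fold change was -0.19 at 9 months (6 above 0) and -0.21 at 3 months (8 above 0). At 3 months 5 of the 22 lay below 0 at an unadjusted p under 0.05 by edgeR, and 14.4% of all tested genes were under it in either direction. For the counts above 0 in each list, the share of all tested genes was 50.7% at 9 months and 50.6% at 3 months. C3, the central complement protein, had -0.23 ± 0.28 at 9 months and 0.22 ± 0.28 at 3 months. Fgg, the fibrinogen gamma chain, averaged 3242 ± 311 CPM in exposed and 3740 ± 871 CPM in control livers at 9 months, and 2753 ± 70.4 CPM in exposed and 8071 ± 3288 CPM in control livers at 3 months. Its log2 fold change was -0.21 ± 0.30 at 9 months and -1.55 ± 0.30 at 3 months (adjusted p = 0.0517 by edgeR, 6.70e-05 by DESeq2). The 3-month value was -1.06 without control 3 of that time and -1.91 without control 2, each with a single control left. Of 12 tested negative acute phase proteins, which fall in the acute phase, 0 passed, with a median of -0.12 at 9 months (2 above 0) and 0.24 at 3 months (11 above 0). Alb, serum albumin, had -0.10 ± 0.32 and 0.51 ± 0.33, and Trf, transferrin, had -0.17 ± 0.29 and 0.26 ± 0.29, each at 9 and 3 months.

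Of 26 tested genes of interleukin-6, interleukin-1 and tumour necrosis factor signalling, 0 passed, with a median of 0.11 at 9 months (15 above 0) and -0.18 at 3 months (10 above 0). Il6st, the shared gp130 receptor chain, had a log2 fold change of 0.26 ± 0.27 at 9 months and -0.34 ± 0.26 at 3 months. Lifr, the leukaemia inhibitory factor receptor, had 0.39 ± 0.39 and -0.53 ± 0.39 at these times. Of 13 C/EBP, HNF and glucocorticoid receptor factors, 0 passed, with a median of -0.19 at 9 months (4 above 0) and 0.14 at 3 months (8 above 0). Cebpa, the C/EBP alpha factor of hepatocytes, averaged 848 ± 247 CPM in exposed and 651 ± 30.2 CPM in control livers at 9 months, and 842 ± 71.5 CPM in exposed and 364 ± 108 CPM in control livers at 3 months. Its log2 fold change was 0.38 ± 0.30 at 9 months and 1.21 ± 0.31 at 3 months (adjusted p = 0.111 by edgeR, 0.00869 by DESeq2). The 3-month value was 1.55 without control 3 of that time, with a single control left. Ppara, a nuclear receptor for fatty acids, had 0.43 ± 0.31 at 9 months and 0.68 ± 0.31 at 3 months (adjusted p = 0.331 by edgeR). Its 3-month value was 1.37 without control 2 of that time, with a single control left.

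Of 14 tested genes of haemoglobin and haem clearance, 0 passed, with a median of -0.03 at 9 months (6 above 0) and 0.14 at 3 months (7 above 0). Lrp1, the receptor for haem-loaded hemopexin, had a log2 fold change of -0.02 ± 0.34 at 9 months and 0.72 ± 0.34 at 3 months. Its 3-month value was 1.56 without control 2 of that time, with a single control left. Pgrmc1, a haem-binding membrane protein, had 0.35 ± 0.33 and -0.23 ± 0.33 at these times. Of 13 tested receptors and carriers of SAA, LCN2 and HDL, 0 passed, with a median of 0.09 at 9 months (8 above 0) and 0.22 at 3 months (9 above 0). Apoe, a lipoprotein ligand, had -0.68 ± 0.30 and 0.63 ± 0.31, and Abca1, the exporter that loads cholesterol onto nascent HDL, had 0.31 ± 0.35 and -0.74 ± 0.35 at 9 and 3 months. At 3 months, Apoe had 1.02 without control 3 and Abca1 -1.29 without control 2, with a single control left. Over all fits that leave out 1 library, the 3-month value of Abca1 included both signs. Genes above and below 0 at an unadjusted p under 0.05 by edgeR were also counted at 3 months. They were 3 and 0 for haem clearance, 0 and 1 for receptors and carriers, and 2 and 0 for C/EBP, HNF and glucocorticoid receptor factors. For the signalling genes they were 1 and 2, and for negative acute phase proteins 0 and 0.

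Summed markers of other cells were set beside the levels of these genes. Saa1 stood at 94.6 CPM in 9-month exposed liver 1 (pancreas markers 1928 CPM) and at 27.1 CPM in 9-month control 2 (9941 CPM), each the highest of its group. In 9-month exposed liver 2, Saa1 stood at 92.7 CPM with pancreas markers at 21.8 CPM. Without both pancreas-rich libraries the Saa1 log2 fold change between exposure times was 4.58. Kupffer cell and macrophage markers (11 genes) summed to 348 to 523 CPM in 9-month exposed livers and 252 to 317 CPM in 9-month controls. These ranges did not overlap, and 10.3% of all tested genes were likewise higher in 9-month exposed livers without overlap. The same markers summed to 230 to 396 CPM in 3-month exposed livers and 214 to 253 CPM in 3-month controls. The exposed groups of the 2 times overlapped. The part of these cells in the Saa1, Saa3 and Orm2 levels was not tested. Neutrophil markers, of which 8 of 12 listed were in the table, summed to 1.57 to 3.52 CPM in 9-month exposed livers, 1.46 to 2.88 CPM in 9-month controls, 1.44 to 11.7 CPM in 3-month exposed livers and 3.80 to 12.9 CPM in 3-month controls, with 4 to 7 of the 8 at 0 in each library and Camp at 0 in all 10. Neutrophils are a known source of Lcn2, and their part in its level was not tested. Erythroid markers (6 of 9 listed) summed to 56.6 to 97.1 CPM in 9-month exposed livers and 102 to 152 CPM in 9-month controls, which did not overlap. They summed to 46.7 to 86.5 CPM in 3-month exposed livers and 31.4 to 59.3 CPM in 3-month controls, which overlapped.

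**Figure D4:**
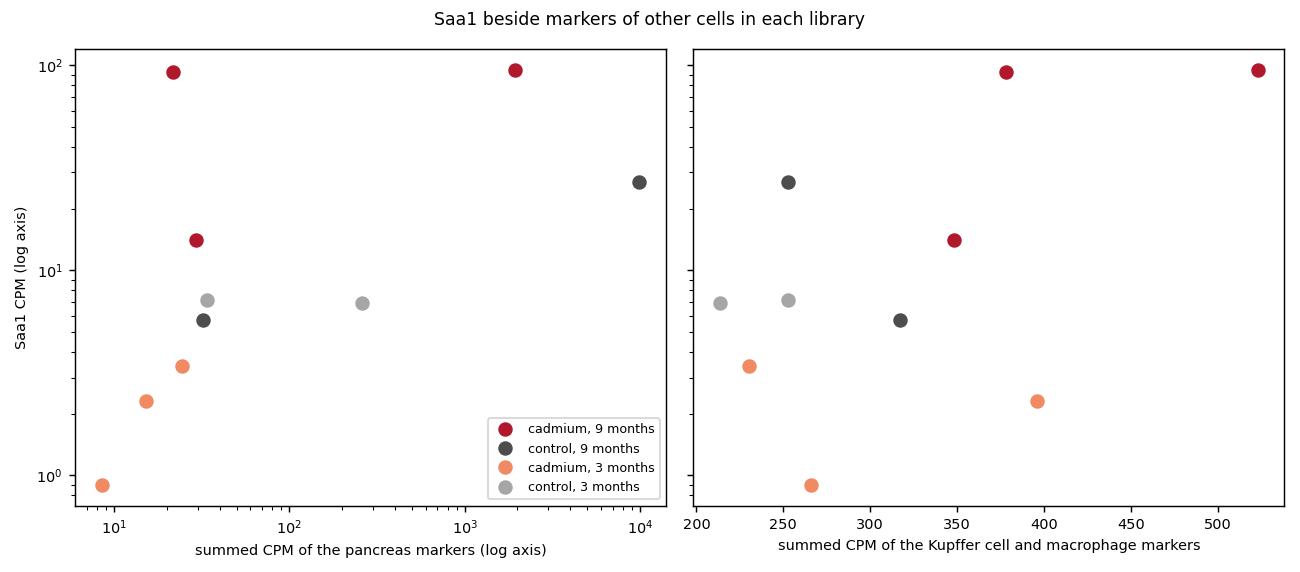
Saa1 level in CPM (log axis) in each of the 10 libraries against the summed CPM of 13 pancreas markers (left, log axis) and of 11 Kupffer cell and macrophage markers (right, linear axis). Exposed livers 1 and 2 of 9 months have like Saa1 levels (94.6 and 92.7 CPM) at pancreas marker sums of 1928 and 21.8 CPM, and the 3 exposed livers of 9 months have marker sums of 348 to 523 CPM on the right.

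Across the 10 libraries, which share groups and differ in depth and composition, Pearson correlations of log2(CPM + 1) were highest between Hpx and Lcn2 (0.909), Apcs and Lcn2 (0.882), Hp and Lcn2 (0.874) and Hp and Hpx (0.861). Saa1 correlated at 0.783 with Saa3 and 0.722 with Orm2, and at 0.394 with Orm1. Among 9417 other genes with a mean of at least 5 CPM, the patterns most like Saa1 were those of Rbbp6 (0.928), Pdia4 (0.899) and Pgk1 (0.866). Those most like Orm1 were Nostrin (0.908), Thbd (0.905) and Pfkfb2 (0.883), those most like Saa4 were Cep95 (0.925), 9030622O22Rik (0.925) and Adh5 (0.917), and those most like Hpx were Yif1a (0.893), Gm38431 (0.878) and Mccc1 (0.873). For Hp they were Mrpl41 (0.896), Rbm10 (0.877) and Vps28 (0.857), for Apcs Inca1 (0.906), Gm38431 (0.864) and Yif1a (0.827), and for Lcn2 Ppp3ca (0.884), Mccc1 (0.879) and Cp (0.877). For the low-count genes they were Epn2, Calr and Smpd2 beside Saa3 (0.904, 0.903 and 0.902) and Jak1, 4833420G17Rik and Colgalt1 beside Orm2 (0.878, 0.855 and 0.825). These values describe 10 libraries and carry no test.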

How the data were processed

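RNA of 20 liver libraries is labelled, of which the 10 input libraries were used; the 10 libraries without that word in their titles, and peaks, are not analysed here. The deposited table holds unnormalised read counts per RefSeq transcript, per the file headers. It also holds TPM per transcript, deposited by the authors and summing to 1e+06 in each column, which was used only to order the genes per length. TopHat2 2.0.13 and MACS2 2.1.0.20151222 and builds hg19, mm10 and rn6 appear with no role per the submitters' processing notes; which program counted reads, whether by strand, and on which annotation release is not given in the sources used here. Another 12 columns of the table, from 6 libraries, correspond to no sample and were left unused.

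Each of 21768 genes was represented by its most counted transcript, summed over the 10 libraries. Counts were filtered with filterByExpr (14067 genes left, Saa2 not among them), scaled by TMM and fitted with edgeR 4.0.16 (robust quasi-likelihood, group means, all 10 libraries, common dispersion 0.309, 6 residual degrees of freedom) in R 4.3.3. All p-values are two-sided and were adjusted by Benjamini-Hochberg over all tested genes, with 0.05 as threshold. Depth was 3958164 to 8912898 gene counts per library. Alternatives were DESeq2 1.42.0, its size factors in edgeR, limma 3.58.1 voom with library weights, other filters, a threshold of 0.1, sums over transcripts, subsets of libraries, a replicate block and fits that leave out 1 library each; the fit was tested on simulated counts. Figures and sequence matches used Python 3.11.15, pandas 2.3.3, numpy 2.4.6, matplotlib 3.10.9 and Biopython 1.88.

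The members, the 6 gene lists, the 8 marker lists and the tests were chosen with earlier results of these data known. Of 178 listed symbols 167 were found, 1 of them by synonym (Tf as Trf). All members are named in every comparison; from each list, up to 4 genes past the threshold are named, or else the 2 with the highest mean CPM; for each tested member the 3 genes with the most similar pattern are named. Deviations from group means correlated at -0.29 to 0.042 over 12 pairs of same-numbered libraries and at -0.23 to 0.29 over 25 other pairs. In groups of 2 libraries these deviations mirror each other, so the values cannot decide whether replicate numbers pair the libraries.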

Additional observations from a re-analysis of the deposited data

How the results depend on the processing

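The counts of genes past the threshold depended on the setting, and the causes were not tested. For cadmium at 9 months the count of 0 became 7 with DESeq2, 76 with no filter, 3 with voom, 10 with that time alone, 1 with the replicate block and 3 with no 3-month controls, and 0 to 5 (without 3-month control 2) when 1 library was left out. For cadmium at 3 months the count of 15 became 479 with DESeq2, 502 with no filter, 6 with 5 CPM in 2 libraries, 2 with voom, 154 with a threshold of 0.1, 0 with that time alone, 3 with no pancreas-rich libraries and 8 with the replicate block, and 4 (without 3-month exposed liver 1) to 1520 (without 3-month control 3) when 1 library was left out. For the mean of both times the count of 14 became 117 with DESeq2, 243 with no filter, 6 with sums over transcripts, 24 with a threshold of 0.1, 3 with no pancreas-rich libraries and 9 with the replicate block, and 4 (without 9-month exposed liver 1) to 468 (without 3-month control 2) when 1 library was left out. For the difference of the times the count of 0 became 40 with DESeq2 and 208 with no filter, and 0 to 874 (without 3-month control 3) when 1 library was left out. For exposure time the count of 0 became 17 with DESeq2, 96 with no filter, 3 with voom, 2 with a threshold of 0.1 and 10 with no 3-month controls, and 0 to 11 (without 3-month control 2) when 1 library was left out. For control time the count of 499 became 1238 with DESeq2, 1073 with no filter, 0 with sums over transcripts, 0 with voom, 1047 with a threshold of 0.1, 5 with no pancreas-rich libraries and 33 with the replicate block, and 6 (without 9-month control 2) to 2599 (without 3-month control 3) when 1 library was left out.

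Of the values of the 9 tested members under the alternatives, 959 kept their direction and side of the threshold, 9 came past the threshold (all of Saa1 or Orm1) and 79 reversed, all of them values that did not pass in the main setting. The values of Orm1 past the threshold came from fits without 3-month control 2, which leave a single control at that time. The 959 include values without an adjusted p from DESeq2, such as those of Saa3 and Orm2 between exposure times. The reversed values given next also include those of named list genes, which are not among these counts. With DESeq2, and with its size factors in edgeR, the value was Hp -0.0043 for cadmium at 3 months. With voom they were Hp 0.12 for cadmium at 9 months, and Hp -0.039 for cadmium at 3 months, and Saa1 -0.052, Saa3 0.15, Hp 0.041 and Lcn2 0.21 for the mean of both times, and Saa4 -0.13 and Hp 0.16 for the difference of the times. With the replicate block they were Hp 0.18 and Lrp1 0.11 for cadmium at 9 months, and Hp -0.058 and Hpx -0.041 for cadmium at 3 months, and Hp 0.063 for the mean of both times, and Hp 0.24 for the difference of the times, and Apcs -0.064 and Lcn2 -0.40 for control time. With no pancreas-rich libraries they were Hp 0.97, Fgg 0.047, Alb 0.39 and Lifr -0.12 for cadmium at 9 months, and Saa3 0.44, Hp 0.50 and Lcn2 2.97 for the mean of both times, and Hp 0.93 for the difference of the times, and Saa1 -0.25, Saa3 -0.87, Hp -0.39, Apcs -0.35 and Lcn2 -7.00 for control time. Values of genes with libraries at 0 counts depend on the prior count of the fit. When 1 library was left out, the log2 fold changes below included both signs. For cadmium at 9 months they ran Hp -0.73 to 1.11, Hpx -0.12 to 0.43, Lcn2 -0.99 to 8.68, C3 -0.45 to 0.028, Fgg -0.41 to 0.041, Alb -0.44 to 0.34, Lifr -0.021 to 0.95 and Lrp1 -0.13 to 0.072. For cadmium at 3 months they ran Saa3 -5.47 to 3.87, Saa4 -0.27 to 1.14, Orm2 -3.80 to 3.02, Hp -0.36 to 0.31, Hpx -0.29 to 0.43, Lcn2 -2.13 to 1.59, Lifr -1.05 to 0.30, Il6st -0.62 to 0.0094, Pgrmc1 -0.71 to 0.53 and Abca1 -1.29 to 0.17. For the mean of both times they ran Saa1 -0.15 to 0.95, Saa3 -2.04 to 2.63, Orm1 -0.51 to 0.070, Hp -0.34 to 0.58, Hpx -0.077 to 0.28 and Lcn2 -1.07 to 3.76. For the difference of the times they ran Saa3 -2.49 to 6.85, Saa4 -0.71 to 0.71, Hp -0.78 to 1.08, Hpx -0.29 to 0.43, Apcs -0.18 to 1.01 and Lcn2 -1.03 to 9.85. For control time they ran Saa1 -0.25 to 1.96, Saa3 -0.88 to 5.80, Saa4 -0.22 to 1.197, Hp -0.39 to 1.46, Apcs -0.35 to 0.72 and Lcn2 -6.99 to 3.90.

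Whether the replicate numbers pair the libraries could not be decided here. With the replicate block no member passed the threshold in any contrast, and the counts under it are those given above. The fit without both 3-month controls was chosen after seeing the data. Scaling by plain CPM moved the mean levels by less than 1 SD except for Saa1 in 3-month controls (6.42 CPM) and Orm1 in 9-month controls (55.8 CPM). With 2 controls at each time and 3 counts worth up to 0.663 CPM, Saa2, Saa3, Orm2 and Lcn2 lie near the depth limit.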

Other observations

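Between control times, 2 genes of the lists passed the threshold, and neither passed in a cadmium contrast of the same fit. Apoe, a lipoprotein ligand, had 4761 and 7222 CPM in controls at 9 months, against 1291 and 2084 CPM at 3 months, a log2 fold change of 1.83 ± 0.34 (adjusted p = 0.0172 by edgeR). Slc48a1, a haem transporter of endolysosomes, had 54.0 and 65.5 CPM in controls at 9 months, against 18.8 and 25.2 CPM at 3 months, a log2 fold change of 1.44 ± 0.36 (adjusted p = 0.0421 by edgeR). The contrast called 499 genes (3.55% of those tested). Both calls were lost with counts summed over transcripts (adjusted p = 0.0620 for Apoe and 0.134 for Slc48a1), with limma voom (0.0710 and 0.279), with the replicate block (0.0560 and 0.0926), without both pancreas-rich libraries (0.367 and 0.485) and without 9-month control 2 (0.199 and 0.349). Of 10 fits that each leave out 1 library, Apoe passed in 9 and Slc48a1 in 1. For Slc48a1 this was the fit without 3-month control 3, which leaves a single control at that time. Over the 10 fits the log2 fold change was 1.53 to 2.22 for Apoe and 1.25 to 1.68 for Slc48a1. In exposed livers Apoe had 3686, 3382 and 4173 CPM at 9 months and 2604, 2970 and 2270 CPM at 3 months.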
